A study of Homo sapiens with 6 samples.

Results

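Osteoblasts set the number of osteoclasts around them through a small group of secreted and membrane-bound factors, and 8 such genes were followed here in osteoblastic cells with and without H3.3-G34W. They were taken by gene name from the deposited expression table, which lists 35639 genes: TNFSF11 (RANKL), TNFRSF11B (osteoprotegerin), TNFRSF11A (RANK), CSF1, IL34, IL6, IL11 and LIF. All 8 had a mean value of at least 10 over the libraries compared, as did 16259 genes of the table, and these 16259 genes were tested. RANKL reached that mean only through 1 library, replicate 1 of H3.3-G34W, without which its mean was 5.71.

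hFOB 1.19 cells are of human fetal osteoblastic origin and divide at 34 °C, where the heat-labile SV40 large T antigen that they carry is active. RNA was sequenced from poly(A)-selected libraries. The authors' methods describe a directional kit and also an Illumina TruSeq preparation, so whether the libraries were strand-specific is not certain. All 3 lines carried the same lentiviral backbone with a dTomato reporter, were sorted for that reporter and were kept at that temperature until day 15 after transduction. The empty vector (EV) line carried nothing more, the H3.3-WT line also HA-tagged fruit fly H3.3, and the H3.3-G34W line the same protein with tryptophan in place of the glycine at the mutated position. There were 2 libraries per line, and the H3.3 lines are called WT and G34W from here on. As a model this is 1 cell line, with the added histone expressed on top of the cells' own H3.3 in undifferentiated culture. Groups follow the library titles, because the genotype field of the labels gives G34W and WT the other way round; every direction between these 2 lines would be the opposite if that field were right. EV replicate 1 was left out, since it was listed at 0 for 28688 of the 35639 genes and for 7 of the 8 osteoclast-regulating genes, so EV is represented by EV replicate 2 alone. Values are normalised estimated counts, the depth behind them is unknown, and nothing in the labels says that the libraries came from separate cultures, so p-values measure only the spread between these libraries.

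RANKL on osteoblast-lineage cells binds RANK on myeloid precursors and, through TRAF adaptors, NF-kB and NFATc1, drives their fusion into bone-resorbing osteoclasts. Osteoprotegerin is a soluble decoy that captures RANKL, so the balance of the pair is commonly used as a measure of osteoclast-forming drive. CSF1 and IL34 both signal through CSF1R to keep precursors alive and dividing, while IL6, IL11 and LIF signal through receptors that share gp130 and act in bone partly by raising RANKL in osteoblasts. Giant cell tumour of bone, in which stromal cells carry H3.3-G34W, is rich in osteoclasts, which is why these factors are of interest in the 2 H3.3 lines.

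The libraries were first compared with markers of osteoblastic, myeloid and pluripotent cells. Of 8 osteoblast markers, COL1A2, COL1A1 and SPARC were high in each of the 5 libraries; COL1A2, a chain of type I collagen, had the highest values, between 90034 and 138799, whereas per kilobase of transcript SPARC had the higher mean, 22465 against 20897. RUNX2, the transcription factor of early osteoblasts, lay between 236 and 573. ALPL, the alkaline phosphatase of mineralising cells, had 1216 in G34W replicate 1 and lay between 107 and 428 in the other 4 libraries. Markers of later osteoblasts were low: SP7 lay between 1.43 and 6.03, BGLAP (osteocalcin) between 4.08 and 44.9, and IBSP was listed at 0 in 4 of the 5 libraries and at 2.50 in EV replicate 2. The cells thus had the matrix transcripts of an osteoblastic line, with SP7 and IBSP at or near 0 and BGLAP low in EV replicate 2 and G34W replicate 1 and higher in the other 3 libraries. Of 12 osteoclast and myeloid markers, TYROBP was listed at 0 throughout, SPI1 reached 1.52 and DCSTAMP 1.25, while 6 or 7 of the 12 were above 10 in each library. Among the latter, CTSK lay between 74.6 and 107, ACP5 between 26.4 and 144 and CD14 between 27.7 and 77.8. The summed value of the 12 was 314 in EV replicate 2, 385 and 368 in WT, and 485 and 285 in G34W.

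G34W replicate 1 stood apart from the other libraries. All 12 pluripotent cell markers were highest in it, with a summed value of 66576 against 1142 in EV replicate 2, 985 and 1073 in WT and 964 in G34W replicate 2. POU5F1, which encodes OCT4, had the highest value of them, 19441, in that library and lay between 41.6 and 75.4 in the other 4. That library was also the lowest of the 5 for 40.0% of the genes tested and the highest for 20.0%; of the 8 osteoclast-regulating genes it was the lowest for 5 (TNFRSF11A, CSF1, IL6, IL11 and LIF) and the highest for 2 (TNFSF11 and IL34). The part of these transcripts in any value of G34W replicate 1 was not tested, and in bulk RNA fewer cells of a type and less RNA per cell cannot be told apart. For the 8 genes, the ratio, the overlap counts and the fold changes between G34W and WT are therefore given with and without that library; fold changes of other genes are given only with it.

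Levels of different genes were compared per kilobase of each gene's Ensembl canonical transcript. Over the 5 libraries IL11 averaged 4458 per kilobase (3186 to 6003) and IL6 averaged 3390 (1739 to 4789), and these ranges overlapped. LIF followed at 1214 (849 to 1469), below the lowest IL6 value. Osteoprotegerin averaged 490 per kilobase (428 to 545) and CSF1 averaged 408 (298 to 530), again with overlapping ranges and below the lowest LIF value. RANK at 41.0 (27.6 to 59.2), IL34 at 34.7 (13.1 to 56.6) and RANKL at 8.41 (0.565 to 31.7) formed the low end, and their ranges overlapped one another. By value, IL11, LIF and IL6 ranked 724, 2038 and 2565 among the 16259 genes tested, and osteoprotegerin ranked 7254, near the middle. RANKL was the scarcest of the 8 by its mean per kilobase. RANKL was the lowest of the 8 per kilobase in 4 libraries, and in G34W replicate 1 it lay above RANK.

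**Figure D1:**
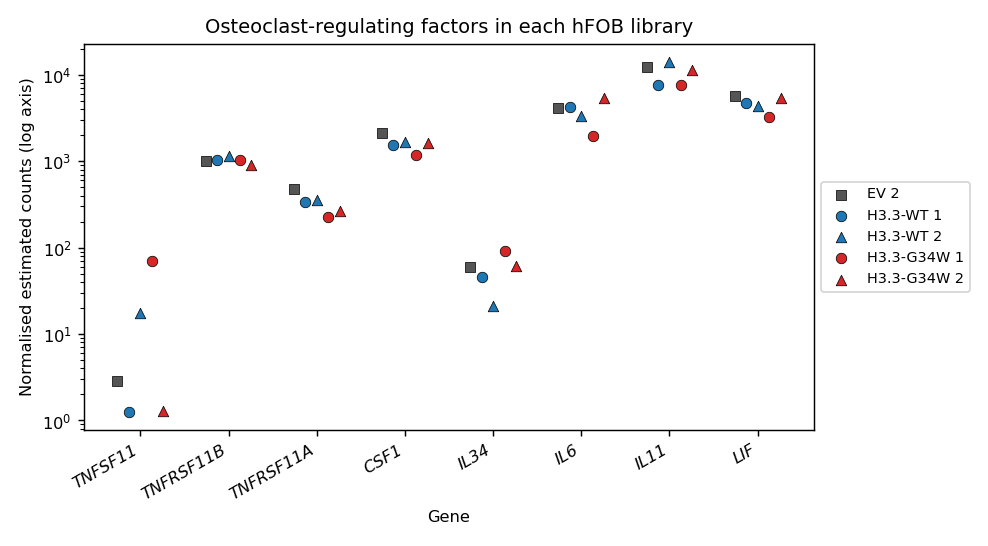
Normalised estimated counts (log axis) of the 8 osteoclast-regulating genes in EV replicate 2 (grey square), WT (blue) and G34W (red), with circles for replicate 1 and triangles for replicate 2; each point is 1 library. RANKL (TNFSF11) spans 1.24 to 69.7, while osteoprotegerin (TNFRSF11B) stays between 894 and 1137.

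RANKL is encoded by TNFSF11 (ENSG00000120659), which spans 42562736 to 42608013 of chromosome 13 in GRCh38.p14, the build of all coordinates here. Its value was 2.86 in EV replicate 2, 1.24 and 17.4 in the WT libraries and 69.7 and 1.30 in the G34W libraries. One library of each H3.3 line was near the bottom of the scale and the other was higher, so the lines overlapped and the spread lay within them. The highest of the 5 values was 56.1-fold above the lowest. Within G34W, replicate 1 was 53.5-fold above replicate 2, and within WT, replicate 2 was 14.0-fold above replicate 1. The values near 1 lie close to low values that recur across the table: 1.11 was the low value that recurred most often in WT replicate 1, for 605 genes, and 1.14 the one in G34W replicate 2, for 677 genes. In G34W replicate 1 the most frequent low value was 0.512, far below the RANKL value there.

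The log2 fold change of RANKL between G34W and WT, on the log2(value + 1) scale of all fold changes given here, was 0.99 with a standard error of 1.97 and a 95% interval from -3.46 to 5.44 (limma, adjusted p = 0.9998). It was -1.48 without G34W replicate 1 and -0.53 without WT replicate 1, but 3.46 without G34W replicate 2 and 2.51 without WT replicate 2, so its direction depended on single libraries. The interval spans large differences both ways, and these data set no useful bound on RANKL.

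Promoter sequence in RefSeq (GRCh38.p14) was matched by symbol for 4 of the 8 genes: TNFSF11, TNFRSF11A, IL6 and IL11. The 160 bases just before the start are shown for RANKL, the most variable of the genes, and for IL6 and IL11, the most abundant of the 8 per kilobase. Each window was searched on both strands for TGANTCA (AP-1), GGANTTTCC (NF-kB), TGACGTCA (CRE), TTCNNNGAA (STAT) and TATAA (TATA box), and matches are in capitals. TNFSF11 has 2 starts in the table, and the window of the second one (plus strand, chr13:42573992-42574151) holds TATAA 28 bases before the start. The same letters on the other strand overlap that match by all but 1 base, so the capitals form a single block.
RANKL, second start: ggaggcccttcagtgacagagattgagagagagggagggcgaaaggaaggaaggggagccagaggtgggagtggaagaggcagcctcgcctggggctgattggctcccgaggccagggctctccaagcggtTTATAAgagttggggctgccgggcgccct
The window of the first RANKL start (plus strand, chr13:42562576-42562735) and that of RANK (plus strand, chr18:62325150-62325309) hold none of the 5 motifs. The 2 RANKL windows differ in base composition, with 39.4% G and C before the first start and 63.8% before the second, and the RANK window has 83.1%. TATAA occurs in 12.7% of the 35116 promoter windows of 160 bases. A match is a description of the letters and says nothing on which start was used, since the table gives 1 value per gene.

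Osteoprotegerin, the decoy receptor, is encoded by TNFRSF11B (ENSG00000164761) at 118923557 to 118951885 of chromosome 8. It had 1017 in EV replicate 2, 1039 and 1137 in WT, and 1022 and 894 in G34W, means of 1088 ± 69.1 and 958 ± 90.6 (SD, n = 2 each). It was the steadiest of the 8 genes, with the highest library 1.27-fold above the lowest. Both G34W libraries lay below both WT libraries, but replicate 1 missed the lower WT library by little. After rescaling each library to a median ratio of 1 to the geometric mean of the 5, the order changed: the values were 1126 and 853 in G34W and 1063 and 1073 in WT, so the lines overlapped. The log2 fold change was -0.19, with a 95% interval from -0.80 to 0.43 (limma, adjusted p = 0.9998). It was -0.28 without G34W replicate 1 and -0.25 without WT replicate 1, and nearer to 0 without the others, at -0.089 without G34W replicate 2 and -0.12 without WT replicate 2.

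The RANKL to osteoprotegerin ratio combines a scarce and a steady transcript, so it followed RANKL. RANKL amounted to 0.282% of the osteoprotegerin value in EV replicate 2, 0.120% and 1.53% in WT, and 6.82% and 0.146% in G34W. The decoy thus exceeded its ligand in each library, by 14.7-fold in G34W replicate 1, 65.3-fold in WT replicate 2, 355-fold in EV replicate 2, 686-fold in G34W replicate 2 and 835-fold in WT replicate 1. Per kilobase the excess of decoy over ligand ran from 15.5-fold to 881-fold. The order of the libraries mixes the lines: G34W replicate 1, WT replicate 2, EV replicate 2, G34W replicate 2, WT replicate 1. In EV replicate 2, G34W replicate 2 and WT replicate 1 the RANKL values were 2.86, 1.30 and 1.24. These lie close to low values that recur across the table, so the folds and the order of those libraries are not well resolved.

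On the log2 scale, with 1 added to both genes, the ratio averaged -6.23 in G34W (SD 3.36) and -7.40 in WT (SD 2.06). The difference of 1.17 was smaller than either SD, and an exact two-sided permutation test gave p = 0.667, where 2 libraries against 2 cannot give less than 0.333. Without G34W replicate 1 the difference was -1.20, and without WT replicate 1 it was -0.28. It was 3.55 without G34W replicate 2 and 2.63 without WT replicate 2, so the library left out set its sign. The library with the highest ratio is the one with the pluripotent cell markers, and their part in the ratio was not tested.

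**Figure D2:**
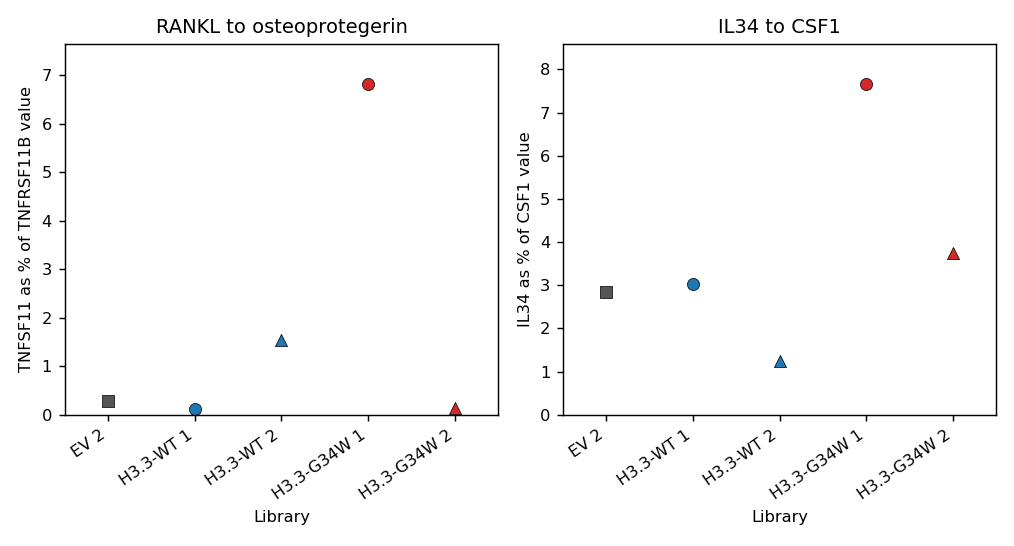
RANKL (TNFSF11) as a percentage of the osteoprotegerin (TNFRSF11B) value, left, and IL34 as a percentage of the CSF1 value, right, in each of the 5 libraries (grey EV, blue WT, red G34W; linear axes from 0; 1 point per library). The RANKL to osteoprotegerin ratio was highest at 6.82% in G34W replicate 1 and 0.146% in the other G34W library.

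RANK, the signalling receptor of RANKL, is best known from osteoclast precursors, and its transcript was present in these cells. TNFRSF11A (ENSG00000141655; chromosome 18, 62325310 to 62391288) had 482 in EV replicate 2, 338 and 360 in WT, and 225 and 266 in G34W. The 3 lines did not overlap, with EV replicate 2 highest and both G34W libraries lowest; the means were 349 ± 15.6 in WT and 245 ± 29.1 in G34W (SD, n = 2 each). The log2 fold change between G34W and WT was -0.51, with a 95% interval from -1.30 to 0.28 (limma, adjusted p = 0.9998), and with each library of the 2 lines left out in turn it lay between -0.63 and -0.39, the latter without G34W replicate 1. Against EV replicate 2 it was -0.98 in G34W, with a 95% interval from -1.94 to -0.01 (limma, unadjusted p = 0.0481, adjusted p = 0.9998), and -0.47 in WT, from -1.43 to 0.50 (limma, adjusted p = 1). With any 1 of the 4 H3.3 libraries left out, the interval for G34W included 0; without G34W replicate 1 the value was -0.86, from -2.08 to 0.37 (limma, unadjusted p = 0.131, adjusted p = 1). Both comparisons share the single EV library.

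LGR4, a second receptor for RANKL that acts against RANK signalling, had 2488 in EV replicate 2, 1827 and 2090 in WT, and 2452 and 2013 in G34W, so the H3.3 lines overlapped. Per kilobase LGR4 averaged 414 against 41.0 for RANK. The 24 genes on the list of RANK signalling, from LGR4 and the TRAF adaptors to NF-kB subunits, FOS and NFATC1, were all tested; in limma 0 passed and 0 had an unadjusted p under 0.05, against 439 of all 16259 genes. For 5 of them (TRAF5, TRAF3, TAB1, CYLD and CHUK) both G34W libraries were lower than both WT libraries, and for 0 both were higher, against 14.7% and 11.6% of all genes tested. Its median log2 fold change was -0.25 against -0.06 over all genes, and its median log2 ratio to the WT mean was -0.48 in G34W replicate 1 and 0.04 in replicate 2. The negative value was thus that of the library with the pluripotent cell markers, whose part in it was not tested.

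Values of 4 genes show how narrow or wide such gaps were in the RANK signalling list. TRAF5, an adaptor that binds RANK, had 504 and 517 in WT and 389 and 371 in G34W, a log2 fold change of -0.43 (limma, adjusted p = 0.9998). TRAF3, which restrains the non-canonical NF-kB pathway, had 3178 and 4276 in WT and 2841 and 3085 in G34W. TAB1, a partner of the kinase TAK1, had 2510 and 2506 against 1714 and 2476. For TRAF5 the 2 lines were separated in both libraries, whereas for TAB1 replicate 2 of G34W lay just under WT. TRAF1 had the largest absolute log2 fold change on the list, -0.74 (limma, adjusted p = 0.9998), with 369 and 565 in WT and 197 and 380 in G34W, which overlapped.

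CSF1 (ENSG00000184371; chromosome 1, 109910506 to 109930992), the main survival factor of the macrophage and osteoclast lineage, had 2115 in EV replicate 2, 1529 and 1685 in WT, and 1192 and 1636 in G34W. EV replicate 2 lay above the other 4 libraries, and the H3.3 lines overlapped by the place of G34W replicate 2. After rescaling to a median ratio of 1 they no longer overlapped, with 1312 and 1562 in G34W against 1564 and 1590 in WT, a gap of a few units. Its log2 fold change was -0.20, with a 95% interval from -0.82 to 0.42 (limma, adjusted p = 0.9998), 0.028 without G34W replicate 1 and -0.43 without replicate 2.

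IL34 (ENSG00000157368; chromosome 16, 70579899 to 70660682), the other ligand of the CSF1 receptor, was the only one of the 8 genes with both G34W libraries above both WT libraries. It had 60.0 in EV replicate 2, 46.2 and 21.1 in WT, and 91.4 and 61.5 in G34W, means of 33.6 ± 17.7 and 76.4 ± 21.1 (SD, n = 2 each). EV replicate 2 lay just under the lower G34W library, so the separation was from WT and hardly from EV. The log2 fold change against WT was 1.23, with a 95% interval from -0.33 to 2.80 (limma, adjusted p = 0.9998), and it lay between 0.69 and 1.78 with each library of the 2 lines left out in turn (0.95 without G34W replicate 1). Against EV replicate 2 it was 0.32, from -1.61 to 2.24 (limma, adjusted p = 0.9998), 0.035 without G34W replicate 1 and 0.60 without replicate 2.

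CSF1 was the larger of the pair in each library. Relative to CSF1, IL34 stood at 2.84% in EV replicate 2, 3.02% and 1.25% in WT, and 7.67% and 3.76% in G34W. Both G34W libraries had the higher ratios, and EV replicate 2 lay between the WT values; the difference in this ratio was not tested. Per kilobase, CSF1 exceeded IL34 by 5.27-fold in G34W replicate 1 and by 32.2-fold in WT replicate 2, the extremes of the 5 libraries.

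CSF1R, the receptor of both ligands and a myeloid marker, had 92.0 in EV replicate 2, 65.8 and 143 in WT, and 99.5 and 39.7 in G34W, without separation of the lines. Of the 8 genes listed for the CSF1 receptor axis, 0 passed the test, 1 lay above and 1 lay below WT in both G34W libraries, where 11.6% and 14.7% of all genes did, and 2 had an unadjusted p under 0.05, as did 439 of all 16259 genes. The one below was CSF2, which encodes GM-CSF, another cytokine of myeloid precursors. It had 2839 and 2392 in WT and 1782 and 1582 in G34W, with 2731 in EV replicate 2, a log2 fold change of -0.63 (limma, adjusted p = 0.9998). The one above was PTPRZ1, an alternative IL34 receptor, with 969.6 in G34W replicate 1 and 47.7 in replicate 2 against 38.6 and 23.6 in WT; most of its log2 fold change of 2.80 (limma, adjusted p = 0.9998) came from the library with the pluripotent cell markers. The median log2 fold change of the 8 was -0.24 against -0.06 over all genes.

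The gp130 cytokines were the most abundant of the 8 genes per kilobase. IL6 (ENSG00000136244; chromosome 7, 22727200 to 22731998) had 4142 in EV replicate 2, 4302 and 3300 in WT, and 1960 and 5397 in G34W. The G34W libraries were the lowest and the highest of the 5, 2.75-fold apart, and WT and EV lay between them. Between the H3.3 lines the log2 fold change was -0.21, with a 95% interval from -1.17 to 0.75 (limma, adjusted p = 0.9998), 0.52 without G34W replicate 1 and -0.94 without replicate 2.

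IL11 (ENSG00000095752; chromosome 19, 55364382 to 55370463) had 12295 in EV replicate 2, 7590 and 14276 in WT, and 7577 and 11272 in G34W. Each H3.3 line had a low replicate 1 and a high replicate 2, and the lines overlapped. For IL11 the log2 fold change was -0.17, with a 95% interval from -0.95 to 0.61 (limma, adjusted p = 0.9998); it was 0.11 without G34W replicate 1 and 0.28 without WT replicate 2, but -0.46 without G34W replicate 2 and -0.63 without WT replicate 1. LIF (ENSG00000128342; chromosome 22, 30240453 to 30246759) had 5686 in EV replicate 2, 4677 and 4397 in WT, and 3287 and 5455 in G34W, again with G34W on both sides of WT. Its log2 fold change was -0.10, with a 95% interval from -0.75 to 0.56 (limma, adjusted p = 0.9998), 0.27 without G34W replicate 1 and -0.46 without replicate 2. IL6 and LIF overlap antisense genes in RefSeq, and RANKL overlaps a long non-coding RNA gene. Whether the counting used strand is not given in the sources used here, so reads of a gene and of such a partner cannot be told apart.

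The windows before the starts of IL6 and IL11 hold different motifs. That of IL6 (plus strand, chr7:22727040-22727199) has the NF-kB motif, beginning 72 bases before the start; 0.974% of the 35116 promoter windows hold it. That of IL11 (minus strand, chr19:55370464-55370623) has the AP-1 motif, beginning 96 bases before the start, and TATAA at 29 bases. The AP-1 motif occurs in 4.41% of all windows.
IL6: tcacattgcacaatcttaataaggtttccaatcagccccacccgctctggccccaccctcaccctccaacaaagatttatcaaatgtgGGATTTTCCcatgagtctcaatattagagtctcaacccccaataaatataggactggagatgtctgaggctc
IL11: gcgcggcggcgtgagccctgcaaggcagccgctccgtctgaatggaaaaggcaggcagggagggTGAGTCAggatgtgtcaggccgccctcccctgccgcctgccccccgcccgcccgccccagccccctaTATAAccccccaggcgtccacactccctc
Neither window holds the CRE motif, which 1.44% of all windows have, or the STAT motif, which 3.88% have. Factor binding was not measured in these libraries, and the letters carry no weight as to what set the levels.

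The receptors needed to respond to these cytokines were transcribed too. IL6ST, which encodes the shared gp130 subunit, lay between 12704 and 19370 over the 5 libraries, and OSMR between 3492 and 5497. The cytokine-specific subunits were lower: LIFR lay between 1269 and 1614, IL11RA between 423 and 808, and IL6R between 193 and 342. Per kilobase IL6ST averaged 1821, OSMR 839, IL11RA 388, LIFR 131 and IL6R 49.1. Other ligands of the family were lower, with OSM at 4.41 or less, IL27 listed at 0 in all 5 libraries and CLCF1 between 158 and 365.

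Of the 14 genes listed as further gp130 ligands and receptors, 11 were tested; in limma 0 passed and 0 had an unadjusted p under 0.05, and 0 had the G34W libraries wholly above or below WT, against 439 of all 16259 genes under 0.05, 11.6% above and 14.7% below. Their median log2 fold change was -0.01. CLCF1 had the largest absolute value on it, -0.54 (limma, adjusted p = 0.9998), with 246 and 365 in WT and 158 and 267 in G34W, which overlapped. Split by library, the median log2 ratio of the list to the WT mean was -0.34 in G34W replicate 1 and 0.13 in replicate 2, against -0.19 and 0.02 over all genes tested.

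**Figure D3:**
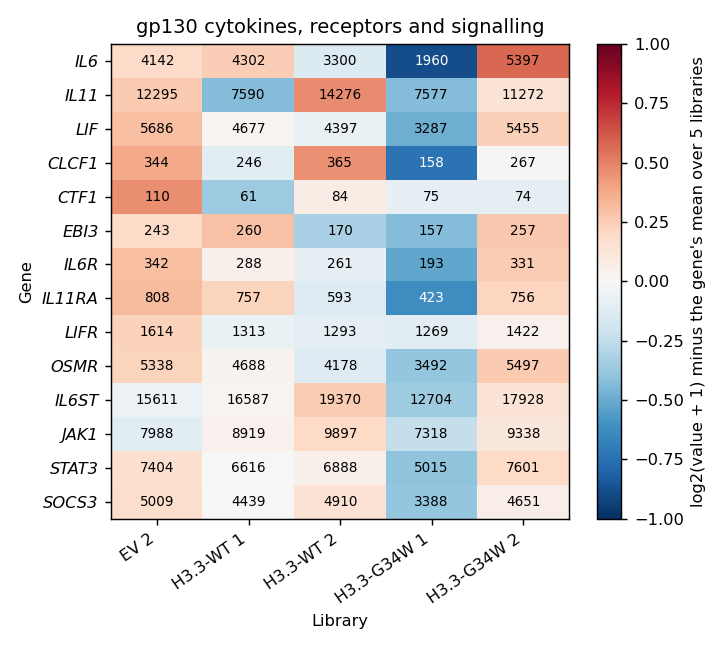
Heat map of gp130 cytokines, their receptors and signalling genes (rows) in the 5 libraries (columns); printed numbers are normalised estimated counts, and colour is log2(value + 1) minus the gene's mean over the 5 libraries (red above, blue below). IL6 has the widest spread within G34W, 1960 in replicate 1 and 5397 in replicate 2.

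Downstream of gp130, the 14 genes listed for JAK-STAT3 signalling and its feedback were all tested; in limma 0 passed and 1, SOCS2, had an unadjusted p under 0.05, against 439 of all 16259 genes. For 3 of them both G34W libraries were higher than both WT libraries, and for 1 both were lower, against 11.6% and 14.7% of all genes. SOCS2, a feedback inhibitor of cytokine receptors, had 462 and 312 in WT and 689 and 623 in G34W, with 373 in EV replicate 2, a log2 fold change of 0.78 (limma, adjusted p = 0.9998). SOCS1, a related inhibitor of JAK kinases, had 194 and 369 in WT and 453 and 403 in G34W. BCL3, an NF-kB cofactor, had 190 and 177 in WT, 211 and 324 in G34W and 240 in EV replicate 2, which lay between the G34W values. The gap between the lines was narrow for SOCS1 and BCL3 and wider for SOCS2. JAK2 had 624 and 759 in WT and 531 and 523 in G34W, and SOCS3, the STAT3-induced inhibitor of gp130, had 4439 and 4910 against 3388 and 4651, which overlapped. Over the 14 genes the median log2 fold change was -0.04.

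A list of 19 genes, named for inducers of RANKL in osteoblasts and enzymes that shed it from the surface, was tested in full. It also holds genes of WNT signalling, among them WNT16, CTNNB1 and SFRP1. In limma 0 passed and 3 (PTH1R, PTGS2 and MMP2) had an unadjusted p under 0.05, against 439 of all 16259 genes. Over the 19 genes the median log2 fold change was -0.10. For 3 of them both G34W libraries were above WT (SFRP1, PTGER2 and MMP2), and for 4 below (PTH1R, PTGS2, PTGER4 and CREBBP), against 11.6% and 14.7% of all genes. PTH1R, the parathyroid hormone receptor, had 82.7 and 80.4 in WT and 31.0 and 12.5 in G34W, a log2 fold change of -1.99 (limma, adjusted p = 0.9998), but EV replicate 2 had 22.9 and lay with G34W. PTGS2, which encodes the cyclooxygenase of inducible prostaglandin synthesis, had 1058 and 1113 in WT, 429 and 578 in G34W and 893 in EV replicate 2, a log2 fold change of -1.12 (limma, adjusted p = 0.9998). MMP2, a gelatinase, had 1294 and 2162 in WT, 2810 and 2621 in G34W and 1427 in EV replicate 2, a log2 fold change of 0.70 (limma, adjusted p = 0.9998). These values put EV replicate 2 with WT for MMP2 and nearer to WT for PTGS2. PTGER2, a receptor for prostaglandin E, had 76.5 and 68.4 in WT, 123 and 131 in G34W and 98.5 in EV replicate 2, which lay between the lines. SFRP1, a secreted WNT antagonist, had 14589 in G34W replicate 1 and 4368 in replicate 2 against 4318 and 3605 in WT. Its separation in replicate 2 was small, and its high value was in the library with the pluripotent cell markers.

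Of 28 genes listed as other osteoclast-coupling factors, 25 were tested. The list is not confined to signals from osteoblasts, since it also holds SEMA4D, which osteoclasts secrete. In limma 0 passed and 1, SCUBE3, had an unadjusted p under 0.05, against 439 of all 16259 genes. Both G34W libraries lay above WT for 1, IL18, and below for 2, SCUBE3 and IL1B, against 11.6% and 14.7% of all genes. The median log2 fold change was -0.20, against -0.06 over all genes. Split by library, the median log2 ratio to the WT mean was -0.46 in G34W replicate 1 and -0.02 in replicate 2. All genes tested had -0.19 and 0.02. SCUBE3, a secreted protein with EGF-like repeats, had the largest absolute fold change of the list: 520 and 560 in WT, 535 in EV replicate 2, and 117 and 137 in G34W, a log2 value of -2.08 with a 95% interval from -2.89 to -1.28 (limma, unadjusted p = 0.000235, adjusted p = 0.9998). Both G34W libraries were far under the other 3. IL1B, an inducer of osteoclast formation, had 13068 and 15739 in WT, 9693 and 12302 in G34W and 10955 in EV replicate 2, which lay with G34W. IL18 had 139 and 87.5 in WT, 147 and 149 in G34W and 148 in EV replicate 2, which lay with G34W. TNF was listed at 0 in all 5 libraries.

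Across the whole table, the limma fit of the 5 libraries found 0 of 16259 genes (0%) between G34W and WT at an adjusted p under 0.05, and 439 genes at an unadjusted p under 0.05, of which 265 were higher and 174 lower. These counts depended on single libraries. Without G34W replicate 1, 226 genes were under an unadjusted 0.05 (110 higher, 116 lower) and 0 passed; without G34W replicate 2 it was 1510 (976 and 534), and 13 passed. Without WT replicate 1 there were 556, and 6 passed; without WT replicate 2 there were 287, and 1 passed. With all 5 libraries the 8 osteoclast-regulating genes had 0 at either threshold; without G34W replicate 2, 1 of them, IL6, was under the unadjusted 0.05 (limma, unadjusted p = 0.0221, adjusted p = 0.420). G34W against EV replicate 2 had none past the threshold either (0 genes, 0%); 317 genes were under 0.05 before adjustment, among them 1 of the 8, TNFRSF11A. Without G34W replicate 2 the count was 1311, and of the 8 it then held CSF1, IL6 and LIF but not TNFRSF11A, which was not under 0.05 without any 1 of the other H3.3 libraries either. For WT against EV replicate 2 the count was 0 genes (0%), with 157 under 0.05 before adjustment and 0 of the 8 among them; without WT replicate 1 it was 268, and 3 passed. With all 5 libraries the counts say that no difference passed the test and not that the genes were at equal levels.

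Counted by overlap, both G34W libraries lay above both WT libraries for 1 of the 8 genes (IL34), where 11.6% of all genes tested did so, and below for 2 of the 8 (TNFRSF11A and TNFRSF11B), against 14.7%. Shares of this size among 8 genes are close to the background. After rescaling to a median ratio of 1, IL34 again lay above (13.9% of all genes) and TNFRSF11A and CSF1 lay below (14.5%), so TNFRSF11B changed places with CSF1. Without G34W replicate 1, replicate 2 lay above both WT libraries for 3 genes (IL34, IL6 and LIF; 31.8% of all genes) and below for 2 (TNFRSF11A and TNFRSF11B; 23.2%). IL34 and TNFRSF11A were thus the genes with the same placement in each of these 3 counts.

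The median log2 fold change of the 8 genes between G34W and WT was -0.18, against -0.06 over all genes tested, with 6 values negative and 2 positive. It divides by library: the median log2 ratio to the WT mean was -0.45 in G34W replicate 1 and 0.03 in replicate 2, where all genes had -0.19 and 0.02. CSF1, IL6, IL11 and LIF lay under the WT mean in replicate 1, by log2 ratios of -0.43, -0.96, -0.53 and -0.46, and above it in replicate 2, by 0.03, 0.51, 0.04 and 0.27.

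**Figure D4:**
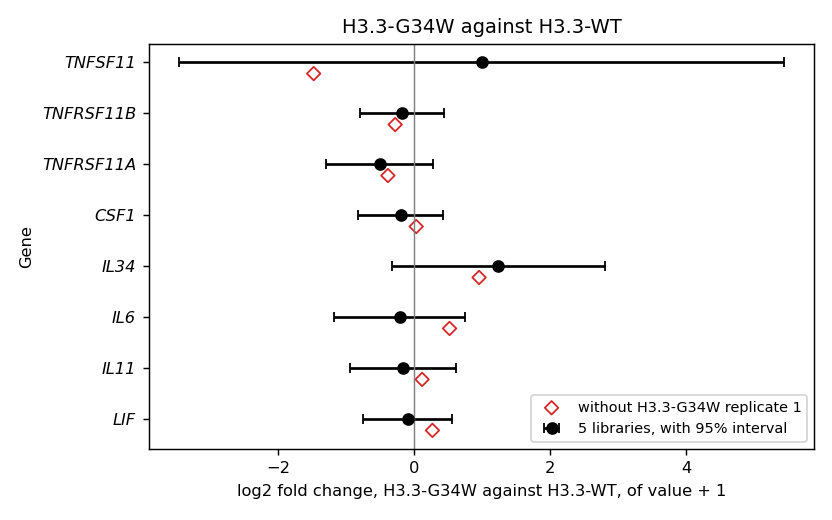
Log2 fold changes of the 8 genes between G34W and WT from the limma fit of 5 libraries (black points, with 95% intervals) and without G34W replicate 1 (red diamonds, no interval drawn). Each interval includes 0; the estimate for TNFSF11 is 0.99 with all 5 libraries and -1.48 without that library.

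EV replicate 2 lay above all 4 H3.3 libraries for 3 of the 8 genes (TNFRSF11A, CSF1 and LIF), against 14.1% of all genes tested, and below them for 0, against 15.2%. The same 3 genes were above after rescaling (15.2% of all genes) and without G34W replicate 1 (18.3%). A single EV library has no spread of its own, and the fit assumes that it varies like the others. For CSF1 the log2 fold change against EV replicate 2 was -0.60 in G34W (95% interval -1.36 to 0.16) and -0.40 in WT (-1.16 to 0.36), and for LIF it was -0.43 and -0.33 (intervals -1.23 to 0.38 and -1.13 to 0.48). Without G34W replicate 1 the values in G34W were -0.37 for CSF1 and -0.060 for LIF, and without G34W replicate 2 they were -0.83 and -0.79, so most of the LIF value came from the library with the pluripotent cell markers. Since both comparisons use the same EV library, their like signs are not independent.

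Genes with the most similar profile over the 5 libraries were found by the Euclidean distance between log2(value + 1) values, each gene centred on its own mean. Nearest to RANKL was SULT4A1 (distance 0.52), with 61.3 in G34W replicate 1, 16.3 in WT replicate 2 and 3.44 or less elsewhere, followed by THSD7A (0.76) and PIWIL2 (1.16). All 3 were highest in the library with the pluripotent cell markers. RANKL was highest there too, so this follows from choosing the genes by profile. Nearest to LIF was IL6R (0.05), which had 342 in EV replicate 2, 288 and 261 in WT, and 193 and 331 in G34W, then SLC12A4 (0.06) and NECAB3 (0.07). Nearest to IL34 were CD38 (0.15), URAHP (0.17) and MIXL1 (0.18); CD38 had 33.8 in EV replicate 2, 27.4 and 12.5 in WT, and 54.5 and 40.3 in G34W. With 5 libraries many genes share a profile by their order alone, and nothing on shared control is read from these distances.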

How the data were processed

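Reads were assigned by the authors with kallisto to the Ensembl 99 transcript models of GRCh38, summed by gene and normalised in DESeq2; tool versions are not given in the sources used here. The deposited values are this normalised signal (estimated counts, not whole reads) for 35639 genes in 6 libraries, so the depth per library is unknown and precision was judged from the spread between libraries. EV replicate 1 was left out. Values were transformed as log2(value + 1), and genes with a mean of at least 10 over the 5 other libraries entered 1 limma fit (limma 3.58.1, R 4.3.3) with moderated variances that follow a trend on mean expression, no covariates, and p-values adjusted by Benjamini-Hochberg over all 16259 genes (threshold 0.05). This scale shrinks the fold changes of genes with low values. The RANKL to osteoprotegerin ratio was tested with an exact permutation test (scipy 1.17.1). The 8 genes and the gene lists were chosen with earlier results of these data known. Genes named are the 8, their receptors, cell type markers, examples beside them, the 3 genes nearest in profile to 3 of the 8, and, per list, at most 4 genes without overlap between the H3.3 lines or with the largest absolute log2 fold change; SOCS3, TNF, OSM, IL27, CYLD, CHUK, MMP2, PTGER4 and CREBBP were chosen after their values were seen. Transcript lengths are those of Ensembl canonical transcripts in GENCODE, coordinates and promoters those of RefSeq GRCh38.p14. The alternatives were other variance, filter, pseudocount and scaling settings, EV replicate 1 included, EV replicate 2 left out, a replicate block, and each H3.3 library left out; the overlap counts, with their values after rescaling or without G34W replicate 1, were added after the data were seen. The fit was also run on simulated libraries of like spread, none of which stood apart as G34W replicate 1 did. That run is no check on the effect of that library. Figures were drawn with matplotlib 3.10.9.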

Additional observations from a re-analysis of the deposited data

Results flagged for a closer look

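EV replicate 1 entered only 1 alternative fit, and 26 of 33 genes (the 8 osteoclast-regulating genes, their receptors and the genes named from the lists by rule) were listed at 0 in it, as were 62.3% of all 16259 genes tested. For 4 of the 33, and 16.8% of all genes tested, its value was above that of each other library: LGR4 at 41163 (1827 to 2488 in the other 5 libraries), CLCF1 at 5384 (158 to 365), SOCS2 at 11162 (312 to 689) and IL18 at 4108 (87.5 to 149). IL11 was the only one of the 8 osteoclast-regulating genes above 0 there, at 76.8. The cause was not tested.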

How the results depend on the processing

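Across 11 alternative fits, the log2 fold changes of the 8 genes between G34W and WT gave 88 values, of which 81 kept their sign, 7 took the other sign and 0 reached an adjusted p under 0.05 in limma. The 7 came from leaving out a library: without G34W replicate 1, TNFSF11 was -1.48, CSF1 0.028, IL6 0.52, IL11 0.11 and LIF 0.27; without WT replicate 1, TNFSF11 was -0.53; without WT replicate 2, IL11 was 0.28. With each library left out the ranges were -1.48 to 3.46 for TNFSF11, -0.43 to 0.028 for CSF1, -0.94 to 0.52 for IL6, -0.63 to 0.28 for IL11 and -0.46 to 0.27 for LIF. TNFRSF11B (-0.28 to -0.089), TNFRSF11A (-0.63 to -0.39) and IL34 (0.69 to 1.78) kept their sign in each fit. The RANKL to osteoprotegerin difference lay between -1.20 and 3.55 with each library left out and was 1.21 with a pseudocount of 0.1. The count of 0 genes between G34W and WT ranged from 0 to 13 with a library left out, that of WT against EV replicate 2 from 0 to 3, and a pseudocount of 0.1 gave 1 gene in each comparison with EV replicate 2. Of the counts of genes that did not overlap, the one above both WT libraries went from 1 to 3 without G34W replicate 1. With the replicate block the count between G34W and WT was 0, with 715 at an unadjusted p under 0.05 in limma against 439 without the block. IL34 against EV replicate 2 went from 0.32 to -0.098 and TNFRSF11A from -0.98 to -0.89, with an interval that included 0. Across genes, deviations of same-numbered G34W and WT libraries from the mean of their line correlated at 0.0945. G34W replicate 1, which stood apart, enters that value, so it cannot decide whether same-numbered libraries were handled together. Where a line was left with 1 library, it was assumed to vary like the others. The causes were not tested. Depth is unknown, so it sets no limit that could be stated for RANKL at values near 1.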
